A study of Ciona robusta with 6 samples.

Results

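A set of 44 gene models was examined whose transcripts were less abundant under a repressor form of the transcription factor Neurog than in control cells, while wild-type Neurog left their mean level near that of the control. Levels are given in CPM, the count of a gene as its part of the library total, scaled so that every library has the same total. A gene was a member when both control libraries held at least 5 CPM, when the higher of both repressor libraries was at most 0.67 times the lower control library, and when the mean of the Neurog libraries lay between 0.67 and 1.5 times the mean of the control libraries. Of the 15232 gene models in the table, 8368 reached the control floor and 111 of these met the repressor condition. Of the 111, 44 were members (0.526% of the genes at the floor), 52 had a Neurog mean above the band and 15 had one below it.

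The bipolar tail neurons (BTNs) of the tunicate *Ciona robusta* arise from the edge of the neural plate, delaminate and migrate along the tail. Neurog is a proneural basic helix-loop-helix transcription factor that drives their fate, and factors of this family usually activate transcription after binding E-box motifs with a partner. The WRPW peptide recruits Groucho-type corepressors, so a Neurog:WRPW fusion is expected to repress genes that Neurog binds. A gene lowered by the fusion but not raised by the wild-type factor therefore shows only one side of the pattern used to find targets of an activator.

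The study sequenced RNA of *Ciona robusta* embryos collected at 9.5 hours post-fertilization (hpf) and 20°C. Every embryo was electroporated with a fluorescent reporter (tagRFP or tagBFP) under the *Neurog* BTN-lineage driver. The same driver expressed *lacZ* in the control (*Neurog* > *lacZ*), wild-type Neurog in *Neurog* > *Neurog*, and the fusion in *Neurog* > *Neurog:WRPW*, with 2 libraries in each group. Such plasmids are taken up transiently and in a mosaic manner. The driver labels the whole BTN lineage, so in the control its cells that become epidermis were sorted together with BTNs. According to the study, wild-type Neurog turns all cells of the lineage into BTNs and Neurog:WRPW abolishes BTN fate. The groups therefore differed in cell fate by design. Labeled cells were sorted with no counterselection, and the study names leaky activity of the driver outside the lineage as a possible source of false positives. The endogenous *Neurog* gene was present in all 3 groups. The libraries held between 10315548 and 24499397 counts. Neurog:WRPW replicate 2, for which the study sorted far fewer cells than for replicate 1, was the smallest and also had the fewest gene models with a count, at 13009. Sorts were uneven in the other groups as well, with fewer cells for lacZ replicate 2 and for Neurog replicate 1 than for the other library of their group. The *Neurog* gene model itself had 95.4 and 125 CPM in lacZ, 4180 and 4480 CPM under Neurog, and 106 and 166 CPM under Neurog:WRPW. The lacZ and Neurog:WRPW ranges of this gene model overlapped, so it checks the label of the Neurog libraries and not that of the libraries labelled Neurog:WRPW, and transcripts of the plasmids and of the endogenous gene were not told apart. Of the genes that the study placed in BTNs by *in situ* hybridization, the 48 analysed here summed to 2781 and 1431 CPM in lacZ, 12534 and 7250 CPM under Neurog, and 1355 and 644 CPM under Neurog:WRPW.

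Of all members, 2 were among the genes that the study examined by *in situ* hybridization, and both were in the group whose BTN expression was unclear. None of the 48 genes placed in BTNs and analysed here was a member, whereas 12 of them were among the 52 lowered genes with a Neurog mean above the band. Of the 48, 39 reached the lacZ floor. Members made up 0.526% of all genes at the floor, and the lowered genes above the band 0.621%. With so small a share of members, nothing is read from their absence among the 48. The study chose the genes for *in situ* hybridization from these libraries, so their distribution is no independent evidence. One of the pair is *Prox.a* (KH.C4.500), which carries a PROX1 annotation. Vertebrate PROX1 is a homeodomain transcription factor that acts in the differentiation of neurons, lymphatic endothelium and other tissues. The other is KH.C2.1019, which has no gene name in the sources used here. The other 42 members are given by their KyotoHoya (KH) identifiers alone, with no role. Stretches of the study's hybridization probes for the pair are shown because these are the members whose transcripts were also sought in embryos. Each is read 5′ to 3′ from a frame of the designed probe that held no stop codon over 132 codons. None of the letters is capitalized because no motif is marked. The gene of the first stretch is on chromosome 4 and that of the second on chromosome 2 by their KH identifiers.
*Prox.a* probe: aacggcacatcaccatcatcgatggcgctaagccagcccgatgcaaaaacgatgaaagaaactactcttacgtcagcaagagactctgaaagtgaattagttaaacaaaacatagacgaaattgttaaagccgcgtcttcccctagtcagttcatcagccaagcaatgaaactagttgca
KH.C2.1019 probe: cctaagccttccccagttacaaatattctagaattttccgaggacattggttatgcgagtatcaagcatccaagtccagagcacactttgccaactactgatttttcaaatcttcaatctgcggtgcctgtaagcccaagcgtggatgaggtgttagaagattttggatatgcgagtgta

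The 2 stretches are 180 bases each, and 43.3% of the bases of each are G or C. Their coordinates are not given because no *Ciona* genome was used here.

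**Figure D1:**
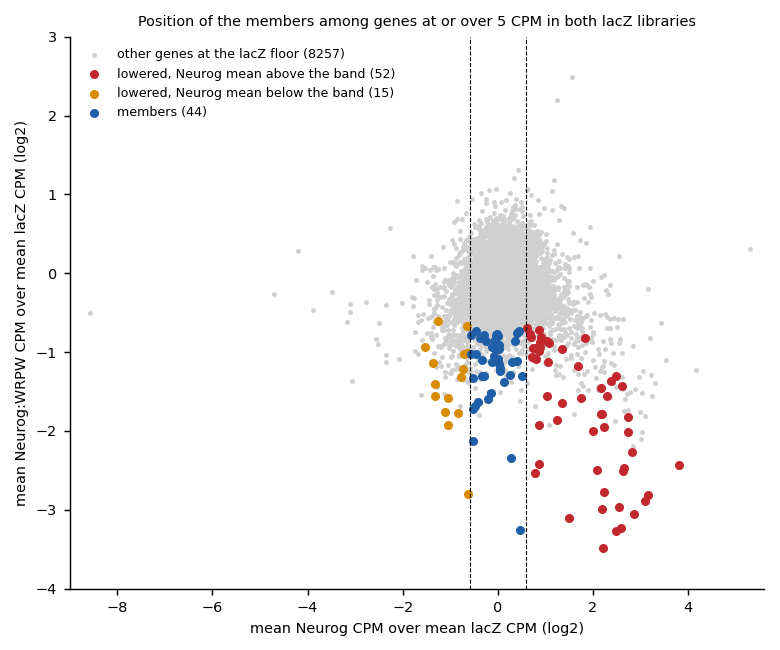
Mean level of each gene in Neurog (x axis) and Neurog:WRPW (y axis) relative to lacZ, both as log2 of the ratio of mean CPM, for the 8368 genes at the lacZ floor. Dashed lines mark 0.67 and 1.5 on the Neurog axis, and the 44 members (blue) lie between them, below the mass of the other genes (gray), while the 52 lowered genes with a Neurog mean above the band (red) spread to the right and the 15 below the band (orange) lie to the left.

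The members were chosen by their levels in all 3 groups, so the levels that follow are a description. *Prox.a* was at 9.59 and 10.4 CPM in lacZ, 15.7 and 12.1 CPM under Neurog, and 2.10 CPM under Neurog:WRPW replicate 1, and had 0 counts in Neurog:WRPW replicate 2. Both Neurog libraries were above both lacZ libraries, and both Neurog:WRPW libraries were below every other library. A count of 0 in that library allows up to 3 counts, or 0.291 CPM, and the lower lacZ library was at least 33.0-fold higher than this limit. Of the members, *Prox.a* had the lowest Neurog:WRPW level relative to lacZ, with a mean of 10.5% of the lacZ mean. In sorted cells of mixed fates, fewer cells that express a gene and less RNA of that gene per cell cannot be told apart, and this holds for every member.

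KH.C2.1019 was at 14.1 and 11.3 CPM in lacZ, 20.8 and 15.1 CPM under Neurog, and 7.46 and 2.81 CPM under Neurog:WRPW. It had the same order of groups as *Prox.a*, without overlap. With a ratio of 0.662 for its higher Neurog:WRPW over its lower lacZ library, and a Neurog mean of 1.41 times the lacZ mean, it lay close to 2 of the limits of the rule.

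The other genes with the lowest ratios were mostly rare transcripts. KH.L170.101 was at 6.59 and 5.59 CPM in lacZ, 3.18 and 5.25 CPM under Neurog, and 1.23 and 1.55 CPM under Neurog:WRPW. Its Neurog libraries lay below both lacZ libraries and above both Neurog:WRPW libraries. KH.C1.776 was at 5.06 and 5.63 CPM in lacZ, 2.43 and 5.25 CPM under Neurog, and 1.69 and 1.65 CPM under Neurog:WRPW. Neurog replicate 2 of this gene fell inside the lacZ range, while replicate 1 was nearer to Neurog:WRPW. KH.S256.12 was at 6.77 and 6.45 CPM in lacZ, 6.59 and 9.36 CPM under Neurog, and 2.5 and 0.10 CPM under Neurog:WRPW. Its low value in Neurog:WRPW replicate 2 was 1 count, so the pair of Neurog:WRPW libraries of this gene agreed only in being below the rest.

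KH.L141.58 was at 11.36 and 12.98 CPM in lacZ, 8.85 and 10.3 CPM under Neurog, and 4.96 and 4.94 CPM under Neurog:WRPW. The 3 groups of this gene did not overlap, with Neurog in the middle. KH.C2.325 was at 6.0 and 7.92 CPM in lacZ, 3.76 and 6.64 CPM under Neurog, and 2.66 and 1.84 CPM under Neurog:WRPW. KH.C2.516 was at 11.6 and 13.2 CPM in lacZ, 7.57 and 14.9 CPM under Neurog, and 5.62 and 3.01 CPM under Neurog:WRPW. In both of these chromosome 2 genes Neurog replicate 1 was between lacZ and Neurog:WRPW, and replicate 2 overlapped lacZ or exceeded it. KH.C3.692 was at 6.83 and 7.88 CPM in lacZ, 6.48 and 8.60 CPM under Neurog, and 3.48 and 2.91 CPM under Neurog:WRPW. KH.C8.675 was at 7.59 and 8.08 CPM in lacZ, 7.52 and 9.55 CPM under Neurog, and 3.88 and 2.13 CPM under Neurog:WRPW. The last pair had nearly the same pattern, with Neurog on both sides of lacZ and Neurog:WRPW apart from both.

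The most abundant members had many counts per library, and most had closely matched lacZ and Neurog:WRPW replicates. KH.C3.257 was at 388 and 393 CPM in lacZ, 355 and 390 CPM under Neurog, and 197 and 206 CPM under Neurog:WRPW. Neurog:WRPW was clearly apart, at 51.6% of the lacZ mean, while Neurog replicate 2 lay between the lacZ libraries. Per length it was also the highest member in lacZ, with a mean of 45.3 RPKM, which is CPM divided by the length of the gene model in kilobases. KH.C6.226 was at 95.9 and 115 CPM in lacZ, 130 and 129 CPM under Neurog, and 49.7 and 46.8 CPM under Neurog:WRPW. All 3 groups were apart, with Neurog highest and Neurog:WRPW lowest. KH.C2.654 was at 62.7 and 63.9 CPM in lacZ, 49.0 and 82.0 CPM under Neurog, and 28.2 and 25.5 CPM under Neurog:WRPW. Its Neurog libraries stood on either side of both lacZ libraries.

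KH.C5.442 was at 66.9 and 74.8 CPM in lacZ, 62.2 and 67.0 CPM under Neurog, and 40.7 and 33.7 CPM under Neurog:WRPW. KH.C10.368 was at 52.9 and 74.4 CPM in lacZ, 48.3 and 74.2 CPM under Neurog, and 35.0 and 33.7 CPM under Neurog:WRPW. In KH.C10.368 replicate 1 was the lower library in lacZ and in Neurog, and the Neurog and lacZ ranges nearly coincided. KH.L96.4 was at 49.3 and 52.5 CPM in lacZ, 56.2 and 42.2 CPM under Neurog, and 31.9 and 27.3 CPM under Neurog:WRPW. KH.C9.106 was at 43.5 and 39.8 CPM in lacZ, 43.1 and 41.4 CPM under Neurog, and 19.2 and 25.2 CPM under Neurog:WRPW. For KH.C9.106 both Neurog libraries were inside the lacZ range and both Neurog:WRPW libraries were far below it. KH.C2.1121 was at 34.9 and 36.9 CPM in lacZ, 33.0 and 38.5 CPM under Neurog, and 20.7 and 13.2 CPM under Neurog:WRPW. Its Neurog libraries enclosed the lacZ range.

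A pair of abundant members differed from these in their Neurog libraries. KH.C2.25 was at 53.8 and 56.0 CPM in lacZ, 34.0 and 40.5 CPM under Neurog, and 34.0 and 30.0 CPM under Neurog:WRPW. Both Neurog libraries were below both lacZ libraries and barely above Neurog:WRPW, so its Neurog mean of 0.679 times lacZ was just inside the band. KH.S164.13 was at 94.8 and 85.7 CPM in lacZ, 30.3 and 91.7 CPM under Neurog, and 44.3 and 44.6 CPM under Neurog:WRPW. Neurog replicate 1 was below both Neurog:WRPW libraries and replicate 2 was inside the lacZ range, and the mean of 0.676 times lacZ describes neither library.

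**Figure D2:**
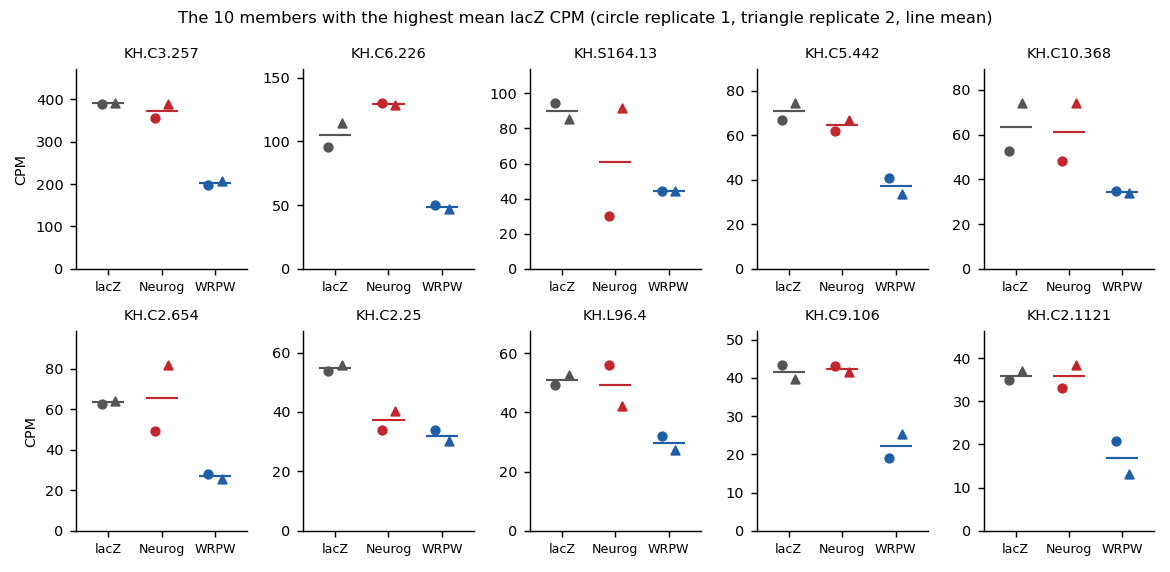
CPM (y axis, linear from 0) in each library of the 10 members with the highest mean lacZ CPM, with lacZ in gray, Neurog in red and Neurog:WRPW (marked WRPW) in blue, replicate 1 as a circle, replicate 2 as a triangle and the mean of both as a line. The Neurog:WRPW libraries are the lowest in each panel except that of KH.S164.13, where Neurog replicate 1 is lowest, and KH.C2.25 has its Neurog libraries near Neurog:WRPW.

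Over all members the mean Neurog:WRPW level was 0.470 times the lacZ mean at the median, with a range of 0.105 to 0.603, and 8 members had a higher Neurog:WRPW library at or under 0.5 times the lower lacZ library. The mean Neurog level was 0.952 times the lacZ mean at the median. Neurog replicate 1 had a median of 0.792 and replicate 2 a median of 1.02. Replicate 1 was the lower Neurog library in 34 of the members, or 77.3%, compared with 58.3% of all genes at the lacZ floor. In 25 members (56.8%) both Neurog libraries were in the band on their own. The share was 59.7% of all genes at the floor and 73.8% of floor genes with a Neurog mean in the band. The median absolute log2 difference between replicates of the members was 0.15 for lacZ, 0.46 for Neurog and 0.21 for Neurog:WRPW, compared with 0.32, 0.36 and 0.42 for all genes at the floor. Close replicates in lacZ and Neurog:WRPW are favored by the rule, which compares the lower library of one group with the higher of the other. The members summed to 1365 and 1404 CPM in lacZ, 1212 and 1445 CPM under Neurog, and 714 and 671 CPM under Neurog:WRPW. The rule places both Neurog:WRPW libraries of every member below both lacZ libraries, so the separation of these sums is fixed by it. The BTN genes given above were not chosen in this way, so their sum is not compared with that of the members. The part of cell composition in the members' levels was not tested.

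**Figure D3:**
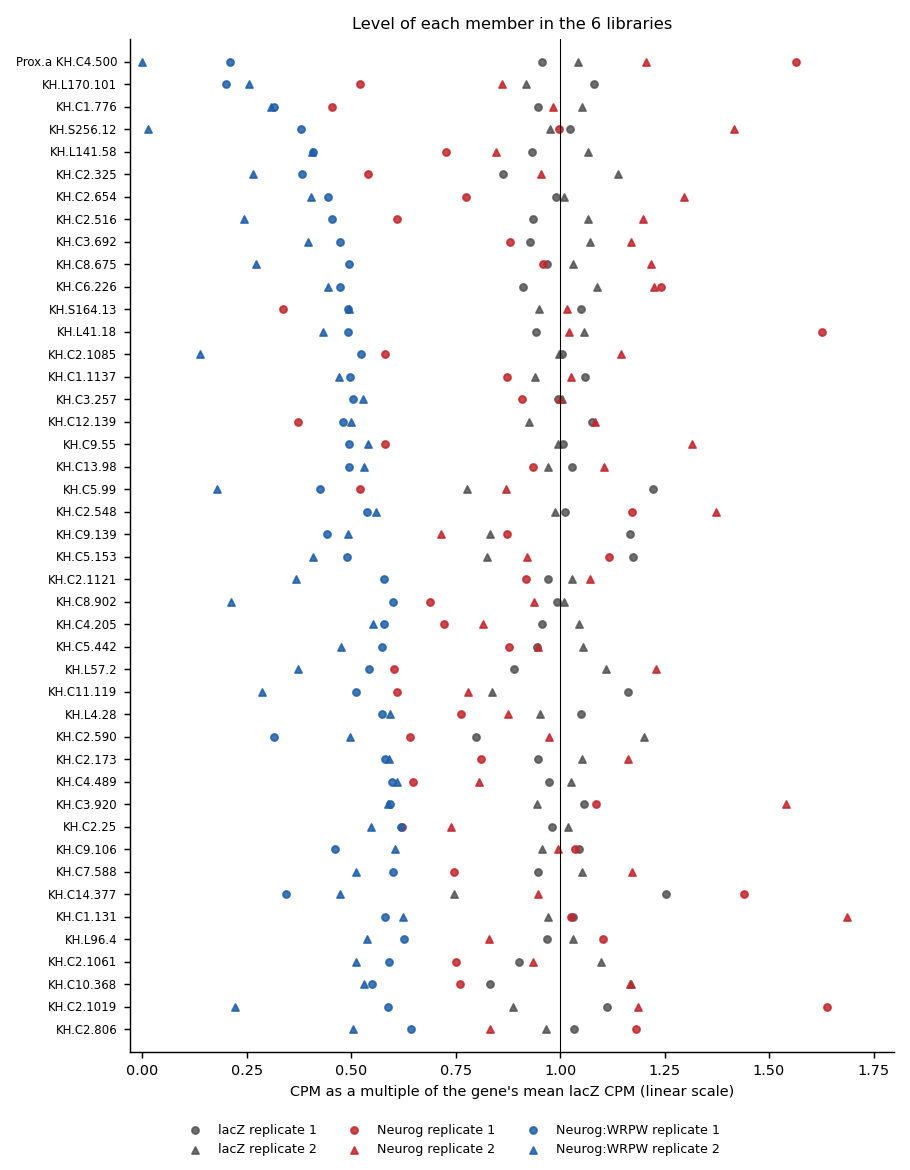
Level of each of the 44 members in the 6 libraries as a multiple of the gene's mean lacZ CPM (x axis, linear), with members ordered from the lowest to the highest ratio of the higher Neurog:WRPW to the lower lacZ library. The blue Neurog:WRPW points are left of the gray lacZ points for each member by the rule, and the red Neurog points lie on both sides of 1, with circles (replicate 1) left of triangles (replicate 2) in 34 members.

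The position of Neurog relative to lacZ divided the members in 3 ways. In 31 members, or 70.5%, the ranges of the Neurog and lacZ libraries overlapped, compared with 61.3% of all genes at the floor. Both Neurog libraries were above both lacZ libraries in 5 members (11.4%), for which the background was 27.7%. These were *Prox.a*, KH.C2.1019, KH.C6.226, KH.C2.548 and KH.C3.920, the last pair being named after their values were seen. Both Neurog libraries were below both lacZ libraries in 8 members (18.2%), for which the background was 11% of genes at the floor. In addition to KH.C2.25, KH.L170.101 and KH.L141.58, these were KH.C11.119, KH.C4.205, KH.C4.489, KH.C8.902 and KH.L4.28, also named after their values were seen. The band of the rule limits these counts from both sides, and nothing is read from their difference from the background.

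Between the perturbations, both Neurog libraries were above both Neurog:WRPW libraries in 42 members, while the background over genes at the floor was 35%. The exceptions were KH.S164.13 and KH.C12.139, the latter at 8.36 and 7.18 CPM in lacZ, 2.89 and 8.41 CPM under Neurog, and 3.73 and 3.88 CPM under Neurog:WRPW. In both of them it was Neurog replicate 1 that was below Neurog:WRPW, and replicate 2 was at the lacZ level. The rule used the levels of both groups, so this count is also a description.

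A model across all genes gave the size of the differences with their errors. It was fitted with the quasi-likelihood functions of edgeR to the 12253 genes over 1 CPM in at least 2 libraries, and all 44 members passed this filter. LogFC is the fitted log2 fold change after scaling by the trimmed mean of M-values (TMM), and a gene was called at a LogFC beyond 0.6 and an unadjusted p under 0.05, the thresholds of the study. In Neurog:WRPW vs. lacZ, 27 of the 44 members were called lower, and 1.19% of all genes tested were called in that direction. The rule used this contrast, so nothing is read from the excess. All 44 members had a LogFC below 0, as did 52% of all genes tested. The median LogFC of the members was -0.98, with a range of -3.10 to -0.62, compared with -0.02 for all genes tested. No member passed an adjusted p of 0.05 with the Benjamini-Hochberg method over all genes tested, nor did any other gene in this comparison. The lowest adjusted p of a member was 0.9999, and 27 members passed the unadjusted threshold, as did 1.56% of all genes tested. The median standard error (SE) of a member's LogFC was 0.39.

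KH.C6.226 had the lowest unadjusted p of the members in edgeR's quasi-likelihood test, with a LogFC of -1.02 and an SE of 0.25. For *Prox.a* the LogFC was -3.10 with an SE of 1.14, the widest error of the members, and it was called in 7 of 12 alternative fits. KH.C2.1019 had a LogFC of -1.20 (SE 0.48) and was called in 5 of the 12. In contrast, KH.C1.1137, KH.C2.654, KH.C6.226 and KH.L170.101 were called lower in all 12. KH.C1.1137, named for this after its values were seen, was at 27.3 and 24.2 CPM in lacZ, 22.4 and 26.4 CPM under Neurog, and 12.8 and 12.1 CPM under Neurog:WRPW. KH.C3.257 had a LogFC of -0.84 (SE 0.23), and its call was lost without lacZ replicate 2 or without Neurog:WRPW replicate 1. KH.S164.13 and KH.S256.12 were not called, with LogFCs of -0.91 (SE 0.47) and -2.22 (SE 1.02), but were called in 5 and 4 of the 12 alternatives. Leaving out lacZ replicate 2 reduced the count of members called lower to 6, beside 1.11% of all genes tested, and leaving out lacZ replicate 1 reduced it to 12, beside 0.623%. The count was 11 when Neurog:WRPW replicate 2 was left out, beside 1.51% of all genes. It was 17 when Neurog:WRPW replicate 1 was left out, although 7.69% of all genes were then called lower.

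In Neurog vs. lacZ no member was called higher, while 4.36% of all genes tested were, and 1 was called lower, in which direction the background was 1.83%. That member was KH.C2.25, also the only one past the unadjusted threshold (6.29% of all genes tested were), with a LogFC of -0.71 (SE 0.23) and a Benjamini-Hochberg adjusted p of 0.599 (edgeR). The rule held the Neurog mean of every member inside the band, which limits calls in either direction. Nothing is therefore read from these counts or from their difference from the background. The median LogFC of the members was -0.22, with a range of -0.72 to 0.37, and 35 were below 0, as were 53% of all genes tested. These LogFCs are lower than the ratios of CPM given above because TMM scaling moved the Neurog libraries down relative to lacZ. The median log2 ratio of Neurog to lacZ over genes at the floor was 0.09 with column totals and -0.05 with TMM, and that of Neurog:WRPW to lacZ was -0.12 and -0.01, so TMM raised Neurog:WRPW by 0.11. On the TMM scale both Neurog:WRPW libraries were still below both lacZ libraries in all 44 members, but 28 of them met the repressor condition, 35 the Neurog band and 21 the whole rule. Together with genes that were not members, 28 genes met the whole rule on that scale. The direction of the Neurog difference itself was not stable for single members: *Prox.a*, KH.C2.1019 and KH.C6.226 kept a positive LogFC (0.33, 0.37 and 0.15), while KH.C2.654 and KH.C9.106, whose mean CPM was above lacZ, had LogFCs of -0.11 and -0.12.

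In Neurog vs. Neurog:WRPW, 15 members were called higher in Neurog, beside 7.08% of all genes tested, and none was called lower, for which the background was 3.49%. The median LogFC was 0.74, with a range of -0.03 to 3.42. Both groups entered the rule, so nothing is read from the count. The count was lower whenever a library was left out, in fits where a group held a single library. All 5 members with Neurog above lacZ were among the 15, as were 9 of the 31 that overlapped lacZ, and 1 of the 8 below lacZ (KH.L170.101). KH.C6.226 had a LogFC of 1.18 (SE 0.25), and its Benjamini-Hochberg adjusted p of 0.167 (edgeR) was the lowest of the members. No member passed an adjusted p of 0.05, while 15 passed the unadjusted threshold, and over all genes tested 0.0408% passed the adjusted and 10.8% the unadjusted threshold. *Prox.a* had a LogFC of 3.42 (SE 1.15), KH.C2.1019 one of 1.57 (SE 0.49) and KH.C2.654 one of 1.03 (SE 0.29). KH.C2.25 and KH.C4.489 had LogFCs of -0.03 (SE 0.23) and 0.01 (SE 0.29), so their Neurog and Neurog:WRPW levels differed by less than the error.

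Members close to a limit differed little from genes outside it. The higher Neurog:WRPW library was 0.661 times the lower lacZ library in KH.C10.368, 0.662 in KH.C2.1019 and 0.664 in KH.C2.806, and 0.672 in each of KH.L22.72, KH.C1.336 and KH.C10.443, which were left out. On the lower side of the Neurog band, KH.S164.13 (0.676), KH.C2.25 (0.679) and KH.L170.101 (0.692) were members and KH.C14.484 (0.649), KH.C14.448 (0.642) and KH.C2.528 (0.633) were not. On the upper side, KH.C2.1019 (1.41), *Prox.a* (1.38) and KH.C1.131 (1.36) were members and KH.C1.578 (1.52), KH.L13.34 (1.59) and KH.C4.678 (1.62) were not. KH.C2.806 was at 30.5 and 28.6 CPM in lacZ, 34.9 and 24.6 CPM under Neurog, and 19.0 and 14.9 CPM under Neurog:WRPW. KH.C1.131 was at 17.8 and 16.7 CPM in lacZ, 17.7 and 29.1 CPM under Neurog, and 10.02 and 10.76 CPM under Neurog:WRPW. In both, the Neurog libraries disagreed with each other by more than the lacZ libraries did. Neither was called lower in Neurog:WRPW vs. lacZ, although KH.C2.806 was called in 4 of the 12 alternative fits and KH.C1.131 in 1.

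Several features that the rule did not use were compared with the other genes at the floor. By their KH identifiers, 12 of the 44 members (27.3%) were on chromosome 2, which held 7.95% of all genes at the floor and 3 of the 52 lowered genes with a Neurog mean above the band (5.77%). No pair of members had identifier numbers within 5 of each other. The numbers are not known here to follow gene order, so this cannot show whether the members on chromosome 2 were adjacent. Their mean lacZ levels ranged from 5.57 to 63.3 CPM, and 8 of the 12 were called lower in Neurog:WRPW vs. lacZ, as were 19 of the other 32. With TMM scaling, 6 of the 28 genes that met the rule were on chromosome 2 (21.4%), and with each Neurog library in the band 6 of 25 (24.0%). A floor of 1 CPM gave 17.6%, while a floor of 10 CPM and a limit of 0.5 for Neurog:WRPW each gave 37.5%. The share fell to 6.77% of the 871 genes that met the rule without Neurog:WRPW replicate 1, and was 10.8% to 21.7% without each of the other libraries. The position of genes on the KH chromosomes was read from the identifiers alone, and 8 members (18.2%) were on unplaced scaffolds, compared with 27.8% of genes at the floor.

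**Figure D4:**
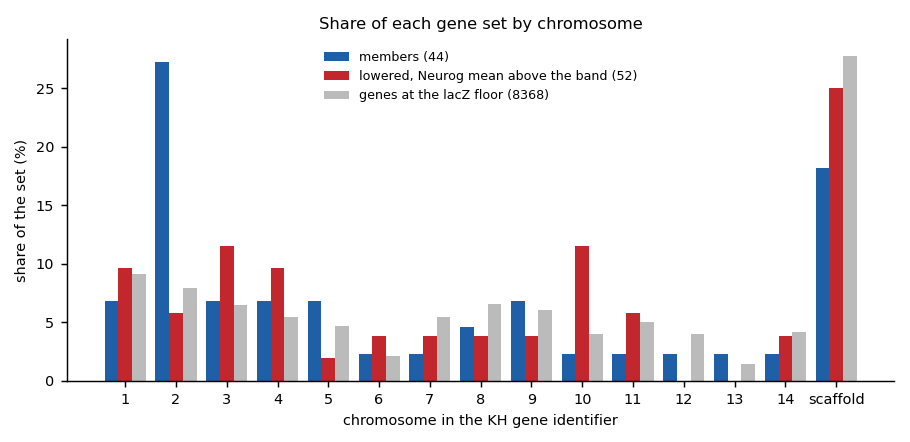
Share (%) of the 44 members (blue), of the 52 lowered genes with a Neurog mean above the band (red) and of the 8368 genes at the lacZ floor (gray) by the chromosome in the KH identifier. Chromosome 2 has 27.3% of the members, 5.77% of the lowered genes above the band and 7.95% of the floor genes.

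The gene models of the members were longer than most. Their median length was 2703 bases, compared with 2059 bases for genes at the floor, 2047 bases for the 52 lowered genes above the band and 2359 bases for the 15 below it. Of the members, 65.9% were longer than the median gene at the floor, as were 73.3% of the 15 genes below the band. Lengths of at least 3000 bases were found in 21 members (47.7%) and in 23.5% of genes at the floor, and no member was shorter than 1000 bases, as 9.07% of genes at the floor were. The median length exceeded that of the floor genes in each class of lacZ level, from 1987 and 1673 bases at 5 to 10 CPM to 3428 and 2374 bases at 50 CPM and over. Among the members on chromosome 2 the median was 3382 bases, and among the other members 2496 bases, compared with 2101 bases for floor genes of chromosome 2. The difference depended on the scaling, the floor and single libraries. The 28 genes that met the rule on the TMM scale had a median length of 2106 bases, close to the 2053 bases of genes at the floor. With a floor of 1 CPM the medians were 1981 and 1913 bases. They were 2143 and 2059 bases without Neurog:WRPW replicate 2, and 2167 and 2018 bases without lacZ replicate 2. The medians stayed further apart without Neurog:WRPW replicate 1 (2587 and 2059 bases), without lacZ replicate 1 (2516 and 2041.5 bases) and with each Neurog library in the band (2657 and 2059 bases). They were furthest apart with a floor of 10 CPM (3405 and 2138 bases) and a limit of 0.5 for Neurog:WRPW (3157.5 and 2059 bases). Per length, the members were of low abundance in lacZ, with a median of 5.18 RPKM compared with 15.96 RPKM for genes at the floor. The median was 4.27 RPKM for the lowered genes below the band and 10.28 RPKM for those above it. In CPM, 16 members were at or under 10 CPM in lacZ (36.4%, compared with 12.2% of genes at the floor). Of the lowered genes below the band 40% were, and of those above it 17.3%. At or over 50 CPM were 8 members (18.2%, compared with 37.0% of genes at the floor). The rule used the lacZ level, so these values are a description and not particular to the members.

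**Figure D5:**
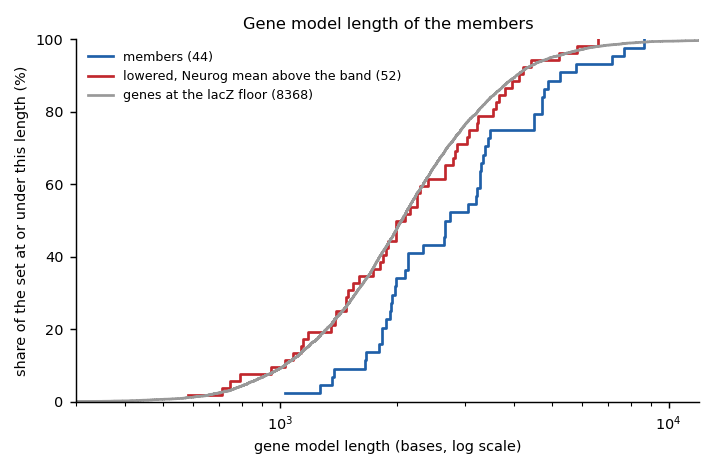
Share of each gene set (y axis, %) at or under a given length of the gene model (x axis, bases, log scale) for the 44 members (blue), the 52 lowered genes with a Neurog mean above the band (red) and the 8368 genes at the lacZ floor (gray). The curve of the members lies to the right of the other curves over most of its range, with medians of 2703, 2047 and 2059 bases.

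The opposite pattern was rarer in these libraries. With the mirrored condition, the lower Neurog:WRPW library at least 1.5 times the higher lacZ library, 7 genes at the floor qualified and 4 of them had a Neurog mean in the band, compared with the 111 and 44 genes of the repressor condition. Column totals place the median gene of Neurog:WRPW below lacZ, as given above. On the TMM scale the called genes were also more often lower, by a smaller factor, with 1.19% of all genes tested called lower and 0.318% called higher.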

How the data were processed

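The authors mapped reads of SMART-seq v4 libraries with STAR 2.5.2b, counted them over the exons of KH gene models with featureCounts and left out duplicate reads. The deposited table holds raw counts per gene model, with 1 column for each of the 6 libraries and the length of each gene model. Neither the assembly version nor the strand setting is stated in the sources used here. Overlapping genes can therefore share reads. Counts are reads without molecular identifiers, and limits from counts cover counting error only. Groups and replicate numbers came from the labels, and the study's text describes the pair of libraries in each group as biologically independent.

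CPM used column totals, and every gene was placed by the rule. The 12253 genes above 1 CPM in 2 or more libraries were fitted by group after TMM scaling over all 6 libraries with edgeR 4.0.16 (R 4.3.3) and two-sided quasi-likelihood tests, adjusted by Benjamini-Hochberg over all of them. The biological coefficient of variation was 0.421. The code was tested on simulated data. Alternatives were a replicate block, DESeq2 1.42.0, edgeR's exact test, other filters, only the groups compared, leaving out each library, and changes to the rule. The members and lists were chosen with earlier results of these data known. Named were the 10 most abundant members, the 10 with the lowest ratio of Neurog:WRPW to lacZ, members in the study's tables, and the 3 genes on each side of each limit. The KH identifiers could not be matched to the reference gene table, so lists by gene product and promoter motifs were not used here.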

Additional observations from a re-analysis of the deposited data

How the results depend on the processing

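All 44 members kept a LogFC below 0 in Neurog:WRPW vs. lacZ in the main model and in each of the 12 alternatives. The rule places both Neurog:WRPW libraries of every member below both lacZ libraries, so this direction was set by the rule. The count of members called lower was 27, and was 36 with a replicate block, 19 with only the groups compared, 17 with edgeR's exact test, 28 with DESeq2 and 6 to 20 with each library left out. The replicate block added calls for KH.C1.131, KH.C2.806, KH.S164.13 and KH.S256.12 among the named members. The count called higher in Neurog than in Neurog:WRPW was 15, and was 18 with the replicate block, 9 with only the groups compared, 7 with the exact test and 6 to 11 with each library left out. No member was called higher in Neurog than in lacZ in the alternatives that kept both libraries of Neurog and of lacZ, the replicate block (0) included. The band of the rule caps the Neurog mean of every member relative to lacZ. The absence of such calls was therefore favored by the rule, and nothing is read from it. Over all genes tested, 146 were called lower in Neurog:WRPW, compared with 435 with the replicate block and 75 to 930 with each library left out. For Neurog vs. lacZ the 534 genes called higher became 813 with the replicate block and 231 to 652 with each library left out, and for Neurog vs. Neurog:WRPW the 868 became 518 to 1460. The replicate numbers are shared by the groups but are not stated to mark a batch. Differences between replicates 1 and 2 correlated across the genes at the lacZ floor at 0.516 (lacZ and Neurog), 0.563 (lacZ and Neurog:WRPW) and 0.478 (Neurog and Neurog:WRPW), which are genes and not independent replicates. Across the 44 members the correlations were 0.218, 0.006 and 0.099 in the same order. The rule favors close replicates of the members in lacZ and Neurog:WRPW. The number of genes that met the rule was 44, and was 28 with TMM scaling, 91 with a floor of 1 CPM, 24 with a floor of 10 CPM, 8 with a limit of 0.5 for Neurog:WRPW, 25 with each Neurog library in the band, and 32 to 871 with each library left out. The alternatives for chromosome 2 and length were chosen after seeing the data. With 2 libraries per group the membership depended on single libraries, and rare members rest on few counts. Over all 44 members, abundant ones included, the median was 54.5 counts in the lower Neurog:WRPW library.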
